A study of Mus musculus with 2 samples.

Results

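Tenomodulin (Tnmd, ENSMUSG00000031250) was followed across the single cells of neonatal mouse tendon as 1 of the 27998 genes counted. The series holds 2 single-cell RNA libraries of limb tendons at P7, 7 days after birth, 1 from pups labelled wild-type and 1 from pups labelled mutant. Tnmd was chosen by name, and its cells were grouped by the messenger RNA of Scx and of a set of fibroblast genes. The mutant pups carried a floxed Tgfbr2 allele over a null allele and ScxCre (Tgfbr2f/-;ScxCre), so that the type II TGF-beta receptor was lost in cells that had used the Scx promoter. ScxCre acts unevenly in the embryonic tendon. The study reports that all tenocytes are targeted only in early postnatal stages, and that receptor staining was almost gone from mutant tendons by birth. The control is called wild-type in its title and genotype but Het in its description, so a heterozygous control cannot be told apart from a wild-type one. According to the study's methods the mice also carried the ScxGFP tendon reporter and the RosaT Cre reporter. The study states that its Scx counts took in ScxGFP transcripts and are not a measure of endogenous Scx. Scx levels below are this combined count. Tendons of fore- and hindlimbs of 2 pups were pooled for each library without scraping off the epitenon and paratenon.

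With 1 library a genotype, genotype cannot be told apart from pups, litter, dissection or library preparation, no test was made, and values are given side by side. The wild-type library held 2364 cells with 9451606 unique molecular identifiers (UMIs, 1 for each captured RNA molecule) and a median of 3866.5 UMIs a cell. The mutant library held 2592 cells with 8250248 UMIs and a median of 2828, and 2 cell barcodes occurred in both. Intervals in the text are 95% intervals, exact binomial for shares and exact conditional for ratios, and cover counting error only. Tgfbr2 itself stood at 30.9 and 45.2 counts per 1000000 UMIs (CPM) in the Scx-high cells defined below and at 64.8 and 72.6 CPM in the Scx-low cells of the wild-type and mutant library, which does not check the genotype labels, because the assay reads only the 3′ end of a transcript.

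Tenomodulin is a type II transmembrane glycoprotein with a BRICHOS domain, a fold of the extracellular part that it shares with the cartilage protein chondromodulin. It is the standard marker of differentiated tendon and ligament cells, and its expression depends on Scleraxis (Scx), the basic helix-loop-helix transcription factor that marks tendon progenitors and tenocytes. Ly6a encodes Sca-1, a surface protein of many fibroblast and progenitor populations, including cells of the sheath around the tendon.

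The gene lies on the X chromosome of GRCm38, from 133850980 to 133865577 on the plus strand, with 7 distinct exons and no overlapping gene in the GENCODE annotation. Its promoter is shown because the results compare Tnmd with Scx, whose family binds E boxes (CANNTG). The sequence below is the RefSeq window of 250 bases before and 50 bases after the annotated start (GRCm38, chrX:133850758-133851057, plus strand), and the capitals mark its TATATA stretch.

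Tnmd promoter: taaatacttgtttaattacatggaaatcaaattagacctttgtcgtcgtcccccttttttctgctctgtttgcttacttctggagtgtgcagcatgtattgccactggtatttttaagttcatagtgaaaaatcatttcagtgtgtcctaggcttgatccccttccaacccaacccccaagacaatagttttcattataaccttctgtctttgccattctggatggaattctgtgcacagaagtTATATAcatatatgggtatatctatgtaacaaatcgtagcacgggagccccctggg

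TATATA, which reads the same on both strands, occurred once, 6 bases before the RefSeq start (distance -6). The RefSeq start lies 28 bases after the GENCODE gene start given above, so that by GENCODE the same stretch begins 22 bases inside the gene. Of all promoter windows, 5.67% of 32851 of the same length held it. CANNTG did not occur in the Tnmd window on either strand, whereas 72.3% of the windows held at least 1. The E box form CAGATG, with its reverse complement CATCTG, did not occur either, and was present in 17.2% of windows.

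Over whole libraries, Tnmd was 2.89-fold lower in the mutant library. It gave 40066 UMIs in the wild-type library and 12106 in the mutant library, or 4239 and 1467 CPM, a fold with an interval of 2.83 to 2.95. At least 1 Tnmd UMI was present in 71.1% of wild-type cells (69.2 to 72.9) and 43.8% of mutant cells (41.9 to 45.8). Cells at 10 or more Tnmd UMIs per 10,000, the limit used below for a cell with Tnmd, were 55.8% and 23.9% of the libraries.

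To ask whether fewer cells carried Tnmd or the carrying cells held less of it, cells were divided by Scx. Scx-high cells had Scx at 30 or more UMIs per 10,000. Scx-low mesenchymal cells lay under that limit and had 5 or more UMIs over Ly6a, Cd34, Dpt, Lum and Col3a1, genes of surface proteins and matrix that fibroblasts express. Scx-high cells made up 49.8% of the wild-type library (1178 cells, 47.8 to 51.9) and 9.07% of the mutant library (235 cells, 7.99 to 10.2). Scx-low mesenchymal cells numbered 828, or 35.03%, and 1910, or 73.7%, and 358 and 447 cells lay outside both groups.

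Most Tnmd molecules of the wild-type library, 90.7% (90.4 to 91.0), lay in Scx-high cells and 8.35% in Scx-low mesenchymal cells. In the mutant library the Tnmd molecules were divided almost evenly, with 48.3% (47.4 to 49.2) in Scx-high and 50.4% in Scx-low mesenchymal cells. Given the mutant level within each of the 3 groups but the wild-type shares of UMIs, a library would stand at 3183 CPM. Given the wild-type levels but the mutant shares, it would stand at 1749 CPM. The change in the mix of cells alone therefore came closer to the 1467 CPM of the mutant library than the change of levels within the groups alone. As the Scx-high share itself rests on RNA counts, fewer tenocytes and less Scx RNA per cell cannot be told apart from these counts. In tissue sections the study detected no significant cell death and no altered proliferation in mutant tendons. It concluded that the cells there without ScxGFP derived from tenocytes, as all of them carried the RosaT Cre reporter.

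In Scx-high cells Tnmd was lower in the mutant library but still abundant, at 5404 CPM against 7393 CPM in the wild-type library. The study describes cells that kept ScxGFP in P7 mutant tendons as newly recruited, some of them with weak or no Cre reporter. Whether the mutant Scx-high cells had lost the receptor was not tested here. The difference in Tnmd was 1.37-fold (1.33 to 1.41), and 574 of 5127 genes measured in Scx-high cells, 11.2%, had a log2 ratio at or below the -0.45 of Tnmd. The Scx-high cells of the libraries differed more at the lower end than at the upper end of the range. Per 10,000 UMIs, the 10th percentile, median and 90th percentile were 33.3, 68.4 and 119.9 in the wild-type library and 0, 43.2 and 122.6 in the mutant library. The highest cells stood at 360.3 (wild-type) and 282 (mutant). Among wild-type Scx-high cells 3 of 1178 had no Tnmd UMI, against 37 of 235 in the mutant library. Cells with Tnmd at 10 or more per 10,000 were 98.8% (98.0 to 99.4) and 77.0% (71.1 to 82.2), and those cells had medians of 68.9 and 59.6. The upper ends of both distributions thus overlapped, while the mutant library had a group of Scx-high cells with little or no Tnmd.

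**Figure D1:**
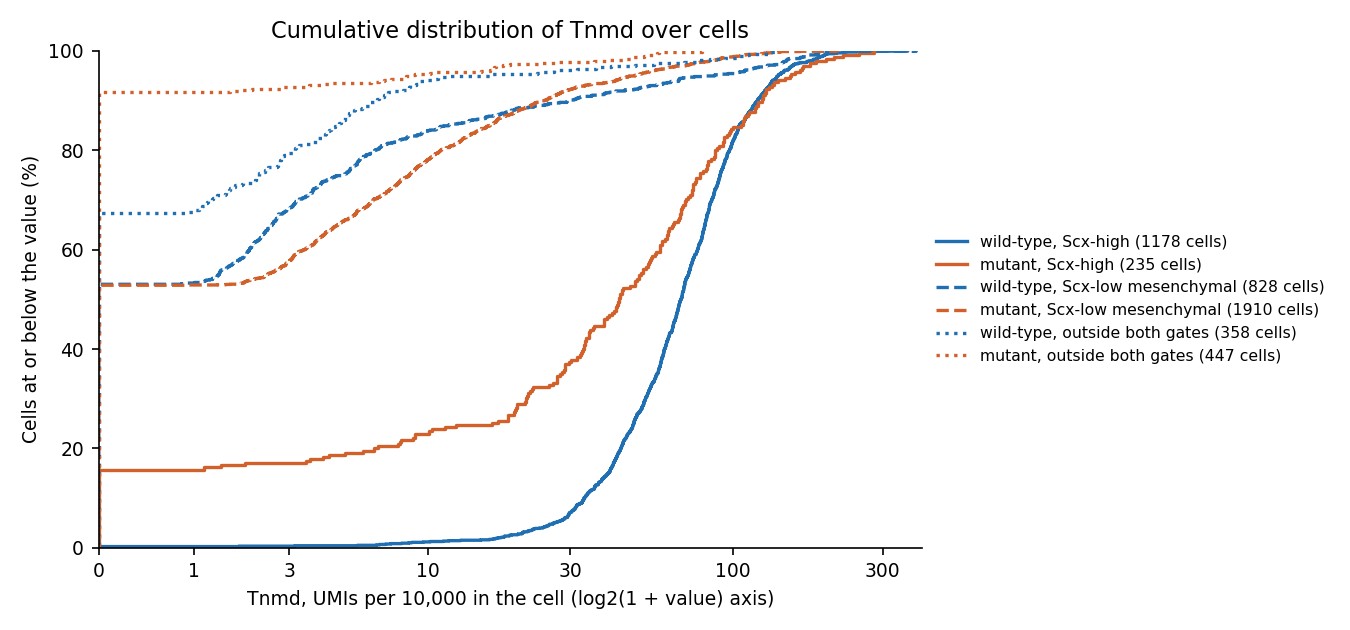
Cumulative share of cells (percent, vertical axis) at or below each Tnmd level (UMIs per 10,000 in the cell, log2(1 + value) axis) in Scx-high cells (solid), Scx-low mesenchymal cells (dashed) and cells outside both groups (dotted) of the wild-type (blue) and mutant (orange) library. The mutant Scx-high curve starts with 37 of 235 cells at 0 and meets the wild-type curve near its upper end, where the 90th percentiles are 119.9 and 122.6.

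Some of the mutant Scx-high cells with little Tnmd carried markers of other cell types, 22 of 54 (40.7%), and the other 32 carried none. Of the 54 mutant Scx-high cells with Tnmd under 10 per 10,000, 15 (27.8%) had 3 or more UMIs over the muscle markers Myod1, Myf5, Pax7, Myog, Actc1 and Tnnt3, and 5 had 3 or more over neural markers. None of the 181 mutant Scx-high cells with Tnmd passed the muscle limit, and 1 passed the neural one. Summed over the whole list of 6 muscle genes, Scx-high cells stood at 3.26 CPM in the wild-type library, where Myod1, Myf5 and Pax7 were at 0, and at 529 CPM in the mutant library, where only Tnnt3 was at 0. Median depth was 3893 UMIs in the mutant Scx-high cells with little Tnmd and 4426 in those with Tnmd. Without cells that carried markers of another type, Tnmd stood at 7488 and 5854 CPM in Scx-high cells, 1.28-fold lower in the mutant library (1.24 to 1.32), and the shares of cells with Tnmd were 99.5% and 84.8%. In the wild-type library 8 of the 14 Scx-high cells with little Tnmd (57.1%) carried markers of another type, and 4 of the 14 passed the leukocyte limit. The median depth of the 14 cells was 1658.5 UMIs.

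The mutant Scx-high cells with Tnmd and those with little of it also differed in tendon genes. Fmod, which encodes fibromodulin, a proteoglycan that binds collagen fibrils, stood at 3004 CPM in those with Tnmd and 518 CPM in those with little. Col1a1, a chain of type I collagen, stood at 24118 and 7317 CPM. Mkx, a homeobox transcription factor of tendon, gave 78 UMIs in the cells with Tnmd (92.0 CPM) and none in the others. The level of Scx, though used to form the group, was also higher in the cells with Tnmd, at 31895 against 13682 CPM. The reverse held for Myog, a transcription factor of differentiating muscle, at 0 against 1423 CPM, and for Dlk1, a membrane protein of immature mesenchymal and muscle cells, at 63.7 against 697 CPM. The values for cells with little Tnmd include the 22 of 54 that carried markers of another type, and Myog is among the muscle markers. Whether the 32 cells without such markers differed in these genes was not tested.

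Within Scx-high cells of the wild-type library, Tnmd was lower in cells that carried markers of another type (31 cells, 4198 CPM) than in those without (7488 CPM), and differed less by Col2a1. Cells with 3 or more UMIs of the cartilage collagen gene Col2a1, 711 of the 1178, stood at 7197 CPM and those below at 7798 CPM. In the mutant library the 13 cells with Col2a1 stood at 7165 CPM, a ratio of 0.996 to the wild-type cells with Col2a1 (0.899 to 1.10), whereas those with less Col2a1 stood at 5309 CPM, a ratio of 0.681 (0.659 to 0.703). Cycling Scx-high cells stood at 5985 CPM in 91 wild-type cells and at 5457 CPM in 38 mutant cells, and the cells not cycling at 7553 and 5389 CPM.

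In Scx-low mesenchymal cells the summed Tnmd level was close between libraries, at 1004 CPM (wild-type) and 1009 CPM (mutant), a ratio of 1.005 (0.964 to 1.05). This ratio had no stable direction. It was 0.874 (0.837 to 0.913) without cells carrying markers of another type, 0.746 as a mean over cells, and 1.55 when only cells with Scx under 10 per 10,000 were counted as Scx-low. Markers of mural cells, which line blood vessels, were present in 108 of the 695 wild-type Scx-low mesenchymal cells with little Tnmd and in 44 of the 1492 mutant ones. The value without cells carrying markers of another type leaves them out.

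The same total was distributed differently over the Scx-low cells. Tnmd at 10 or more per 10,000 was found in 133 wild-type cells, 16.1% (13.6 to 18.7), and in 418 mutant cells, 21.9% (20.05 to 23.8). Among those, the median was 45.1 per 10,000 in the wild-type library and 22.4 in the mutant library. Cells from 10 to under 40 per 10,000 were 7.61% of the wild-type and 15.5% of the mutant Scx-low cells, and cells at 40 or more were 8.45% and 6.34%. By these counts the wild-type library had the smaller share of cells with Tnmd but the larger share at 40 or more. The mutant library had more cells at intermediate levels. No interval was made for the shares at 40 or more. From 20 per 10,000 the shares were 11.6% (9.49 to 13.97) and 12.1% (10.7 to 13.7), with overlapping intervals. Of the cells with Tnmd, 48 of the 133 wild-type and 44 of the 418 mutant cells lay just under the Scx limit, at 10 to 30 Scx UMIs per 10,000. Without cells carrying markers of another type, the shares with Tnmd were 18.4% (15.6 to 21.5) in the wild-type and 22.5% (20.6 to 24.5) in the mutant library, with overlapping intervals. When each cell was thinned to 1653 UMIs, with 57 and 222 shallower cells left out, 29.2% of wild-type cells (25.99 to 32.5) and 39.5% of mutant cells (37.2 to 41.9) had a Tnmd UMI. Before thinning the shares were 47.0% and 47.2%, and leukocytes outside both groups thinned alike had a UMI in 20.3% and 2.20%.

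Free RNA in the droplets gives a cell Tnmd UMIs that it did not make, and the level of this background differed between libraries. Leukocytes outside both groups, which should not express Tnmd, had a UMI in 28.1% of 178 wild-type cells (131 CPM, median depth 2376 UMIs) and 1.66% of 181 mutant cells (11.7 CPM, median depth 1658). Hemoglobin-rich cells had one in 34.1% of 88 wild-type cells (median depth 5682) and 5.06% of 79 mutant cells (median depth 4451). Single Tnmd UMIs in wild-type Scx-low cells are therefore partly background, which is why the limit of 10 per 10,000 was used. At that limit 1.69% of the wild-type and 0% of the mutant leukocytes outside both groups passed, the latter allowing up to 2.02% (exact binomial), and no hemoglobin-rich cell did. Of mural cells outside both groups, 0 of 43 wild-type and 6 of 49 mutant cells passed (12.2%, 4.63 to 24.8). Of all cells outside both groups, 5.87% and 4.70% passed. In 20 wild-type Scx-high cells with leukocyte markers Tnmd stood at 5106 CPM, and no mutant cell of that kind was found.

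By cell group, the order of Tnmd levels in the wild-type library was Scx-high cells, Scx-low mesenchymal cells at 1004 CPM (970 to 1038), and then leukocytes at 131 CPM (100 to 168), mural cells at 127 CPM (74.2 to 204), endothelial cells at 75.8 CPM (20.7 to 194) and hemoglobin-rich cells at 68.2 CPM (46.7 to 96.3), the last 4 taken outside both groups. Leukocytes, mural and endothelial cells had overlapping intervals, and the interval of hemoglobin-rich cells overlapped those of mural and endothelial cells. In the mutant library mural cells outside both groups followed the Scx-low mesenchymal cells at 179.8 CPM (111 to 275), above hemoglobin-rich cells at 21.03 CPM (8.45 to 43.3), endothelial cells at 16.4 CPM (0.414 to 91.1) and leukocytes at 11.7 CPM (3.20 to 30.03), whose intervals overlapped. Neural cells outside both groups stood at 19.3 CPM (2.34 to 69.9), and 0 of 25 muscle cells outside both groups had a Tnmd UMI, which allows a share of up to 13.7% (exact binomial).

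Along the scale of Scx, Tnmd rose in a step in the wild-type library and more gradually and unevenly in the mutant library. Wild-type mesenchymal cells stood at 399 CPM with no Scx UMI, 883 CPM at 3 to 10 Scx UMIs per 10,000, 5146 CPM at 10 to 30 and 7744 CPM at 60 to 100. From there to the highest bin the level stayed between 7118 and 7744 CPM. Above the step, therefore, wild-type cells with several times more Scx did not hold more Tnmd. The corresponding mutant levels were 647, 1864, 3341 and 5028 CPM, with 3116 CPM at 30 to 60. The highest mutant level, 6801 CPM, was reached at 300 to 500 Scx UMIs per 10,000, and it stood at 5486 CPM in the bin above. Cells with Tnmd reached 100% of the wild-type cells at 60 to 100 Scx UMIs per 10,000 and 76.9% of the mutant cells there.

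**Figure D2:**
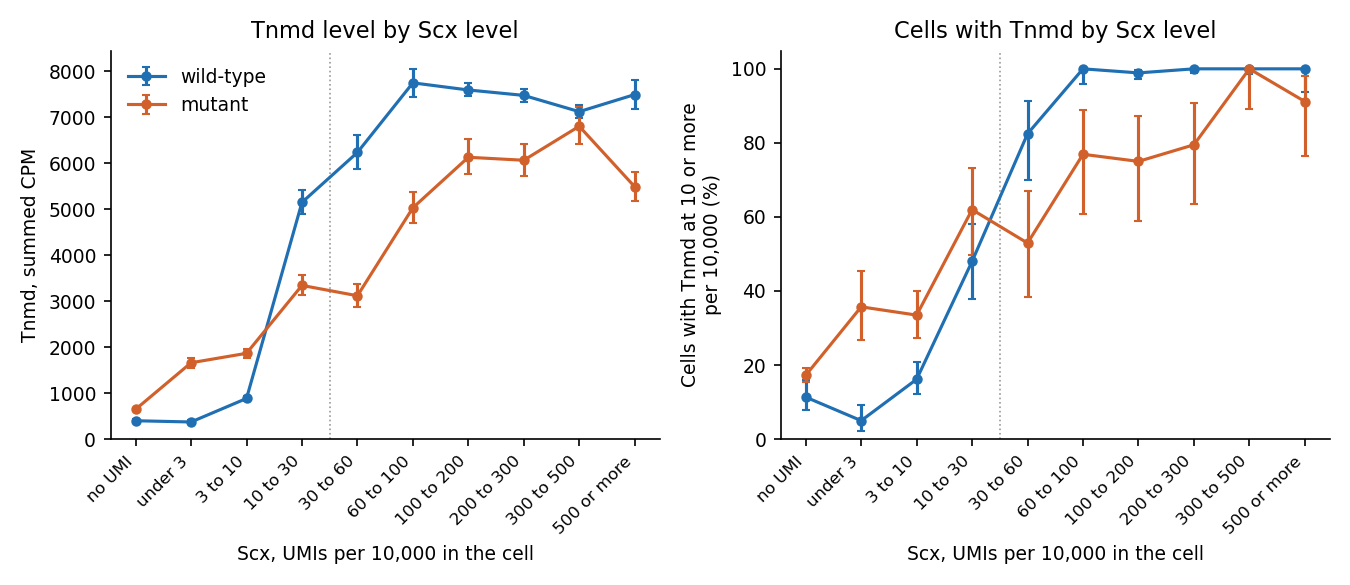
Tnmd level (summed CPM, left) and share of cells with Tnmd at 10 or more UMIs per 10,000 (percent, right) by the Scx level of mesenchymal cells (UMIs per 10,000, in 10 bins), in the wild-type (blue) and mutant (orange) library, with exact 95% counting intervals and a dotted line at the Scx-high limit. The wild-type level rises from 883 to 7744 CPM between 3 and 100 Scx UMIs per 10,000 and is then level, and the lines cross at low Scx.

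Below about 10 Scx UMIs per 10,000 the order of the libraries was turned. In mesenchymal cells with no Scx UMI, Tnmd at 10 or more per 10,000 was found in 29 of 256 wild-type cells (11.3%, 7.72 to 15.9) and in 259 of 1503 mutant cells (17.2%, 15.4 to 19.2). The summed level there was 1.62 times higher in the mutant library (1.45 to 1.82). In cells with a Scx UMI but under the limit it was 1.68 times higher (1.597 to 1.766), at 2060 against 1227 CPM. These shares and levels include cells carrying markers of another type. A Scx UMI itself was present in 69.1% of wild-type and 21.3% of mutant Scx-low mesenchymal cells. After thinning the shares with a Scx UMI were 43.5% and 14.3%, beside 51.1% and 3.30% in leukocytes outside both groups and 29.3% and 8.57% in hemoglobin-rich cells. In the wild-type library a few Scx UMIs are therefore at the level of free RNA and are not read as expression of Scx. Just inside the Scx-high limit, at 30 to 35 Scx UMIs per 10,000, Tnmd stood at 5008 CPM in 15 wild-type and 1543 CPM in 16 mutant cells. Just outside it, at 25 to 30, the values were 6869 CPM in 12 wild-type and 4428 CPM in 9 mutant cells. At the mesenchymal limit, Scx-low cells with 5 or 6 UMIs over the gate genes stood at 1947 and 1380 CPM (31 and 59 cells), and those with 3 or 4 at 1240 and 643 CPM (42 and 56 cells).

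Over all mesenchymal cells the correlation of Tnmd with Scx, as Pearson's r of log2(1 + UMIs per 10,000), was 0.83 in the wild-type library (2006 cells) and 0.49 in the mutant library (2145 cells). These and the other correlations are descriptions over cells that share a library, its depth and its free RNA. Within Scx-high cells r was 0.12 and 0.34, and within Scx-low mesenchymal cells 0.32 and 0.27. The high wild-type value over all mesenchymal cells thus came from the contrast of the Scx-high with the Scx-low cells, and within the wild-type Scx-high cells Spearman's rho was -0.00.

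**Figure D3:**
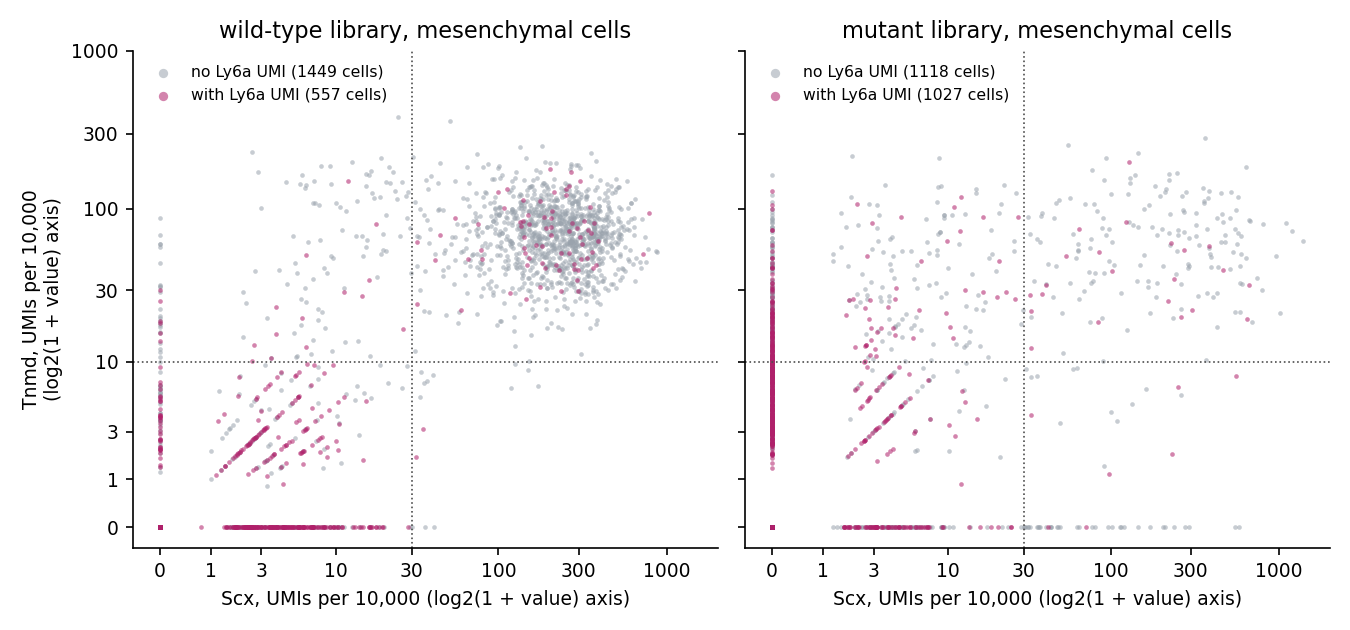
Each point is 1 mesenchymal cell of the wild-type (left) or mutant (right) library, by Scx (horizontal) and Tnmd (vertical), both in UMIs per 10,000 on log2(1 + value) axes, and colored purple where the cell has a Ly6a UMI. Dotted lines mark 30 for Scx and 10 for Tnmd, and 1000 of 1178 wild-type Scx-high cells lie at 40 or more Tnmd UMIs per 10,000, against 125 of 235 mutant ones.

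Among Scx-low mesenchymal cells Tnmd and Ly6a tended to occur in different cells, clearly in the wild-type library and only weakly in the mutant library. In wild-type Scx-low mesenchymal cells a Tnmd UMI was present in 35.1% with and 63.6% without a Ly6a UMI. The mutant shares were 44.0% and 50.7%. Over mesenchymal cells r was -0.66 (wild-type) and -0.24 (mutant), and in Scx-low mesenchymal cells -0.41 and -0.17. Ly6a is 1 of the 5 genes that admitted Scx-low cells, so that cells with none of the 5 are missing from these values. The values over all mesenchymal cells join cells admitted by Scx with cells admitted partly for Ly6a. Their negative sign is thus partly built in, and their size depends on the mix of the groups, which differed between libraries. Within Scx-high cells r was -0.07 (wild-type) and -0.05 (mutant). Of the other gate genes, in Scx-low cells of the wild-type library Cd34, a surface sialomucin, had r of -0.35, Dpt, dermatopontin, -0.27, Lum, lumican, -0.23 and Col3a1, type III collagen, -0.14. The mutant values were -0.17, -0.01, -0.03 and -0.06.

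In Scx-low mesenchymal cells of the wild-type library, a Ly6a UMI was present in 71.3% of cells without Tnmd UMI (66.8 to 75.5), 58.2% of cells with Tnmd under 10 per 10,000, 27.0% at 10 to 40 (16.6 to 39.7) and 4.29% at 40 or more (3 of 70 cells, 0.893 to 12.02). In the mutant library the shares were 55.4% (52.3 to 58.5), 60.04%, 41.8% and 20.7% (25 of 121 cells, 13.8 to 29.0). Summed Ly6a levels over the same bins were 1489, 977, 311 and 13.1 CPM in the wild-type library and 1049, 1037, 664.5 and 297 CPM in the mutant library. After thinning, a Ly6a UMI was present in 27.1% of wild-type and 39.9% of mutant Scx-low cells with a Tnmd UMI, and in 60.6% and 50.4% of those without. Both libraries thus had least Ly6a in the cells with most Tnmd, and cells with both were more frequent in the mutant library. In leukocytes outside both groups, thinned alike, a Ly6a UMI was present in 0% of wild-type and 5.49% of mutant cells. The shares in hemoglobin-rich cells were 1.33% and 0%. How far free Ly6a RNA adds to the cells with both was not tested.

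**Figure D4:**
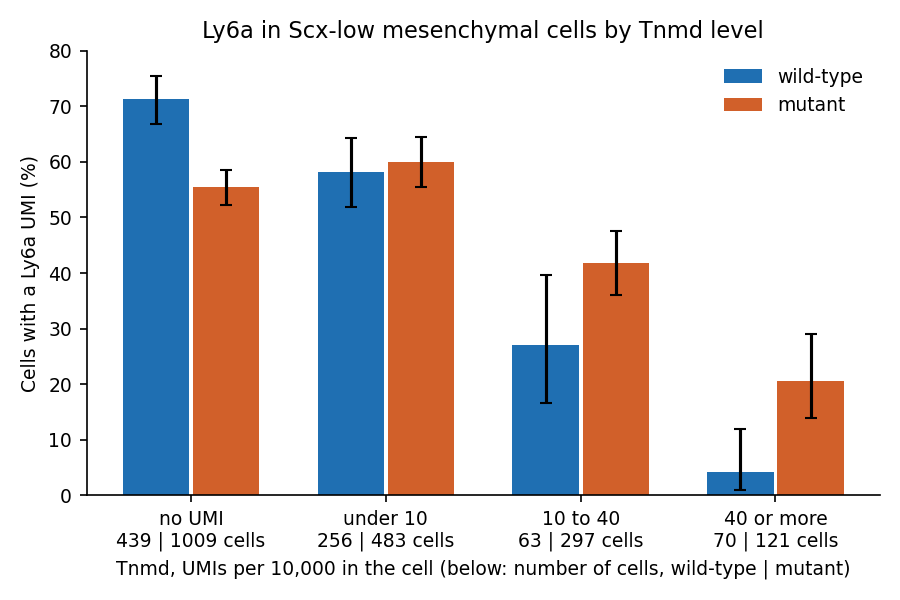
Share of Scx-low mesenchymal cells with a Ly6a UMI (percent, vertical axis, from 0) by the Tnmd level of the cell (UMIs per 10,000) in the wild-type (blue) and mutant (orange) library, with exact binomial 95% intervals and cell numbers under the bars. The wild-type share falls from 71.3% to 4.29% and the mutant share from 55.4% to 20.7%.

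Read the other way, Scx-low mesenchymal cells with a Ly6a UMI held 237 CPM of Tnmd in the wild-type library (482 cells) and 603 CPM in the mutant library (998 cells), a ratio of 2.55 (2.30 to 2.82). Tnmd at 10 or more per 10,000 was found in 4.15% and 14.9% of them. In cells without Ly6a UMI the order was reversed, at 2136 CPM in 346 wild-type and 1483 CPM in 912 mutant cells, a ratio of 0.694 (0.662 to 0.728), with Tnmd in 32.7% and 29.5%. Their 90th percentiles were 104 and 41.8 per 10,000. The division by Ly6a was not repeated at another Scx limit. In Scx-high cells with a Ly6a UMI, 75 wild-type and 29 mutant cells, Tnmd stood at 6829 and 3584 CPM.

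The genes whose pattern over cells was most like that of Tnmd were genes of the tendon matrix. In Scx-low mesenchymal cells the 10 highest r values of the libraries shared 6 genes, namely Fmod, Col11a1 (a fibril-nucleating minor collagen), Col1a1, Kera (the proteoglycan keratocan), Thbs4 (thrombospondin-4, a matrix protein of tendon) and 1500015O10Rik (the gene of the secreted precursor augurin). Fmod was first in both, with an r of 0.63 (wild-type) and 0.44 (mutant). It stood at 1566 CPM in wild-type Scx-low cells with Tnmd and 93.4 CPM in those with little, and at 934 and 170 CPM in the mutant library. Of 4409 genes compared in the wild-type Scx-low cells 1.04% had r of 0.2 or more and 1.16% of -0.2 or less, and of 3687 in the mutant ones 0.732% and 0.136%. Against these shares, 12 of 19 tendon matrix genes in the wild-type and 9 of 15 in the mutant Scx-low cells had r of 0.2 or more and none had -0.2 or less, with median r of 0.33 and 0.24.

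The lowest r values in Scx-low cells belonged to genes of the sheath and of interstitial fibroblasts. The 10 lowest of the libraries shared 7 genes, Ly6a, Ly6c1 (a Ly6 surface protein), Cd34, Cd248 (endosialin, a stromal surface protein), Mfap5 (a microfibril glycoprotein), Gsn (the actin-severing protein gelsolin) and Tppp3 (a tubulin-binding protein found in tendon sheath cells). The lowest in the wild-type library was Mfap5 at -0.48, which was -0.19 in the mutant library, where Tppp3 was lowest at -0.26. Of the 17 peritenon and fibroblast genes compared in each, 12 among wild-type Scx-low cells and 4 among mutant ones, Pi16, Tppp3, Fbn1 and Gsn, had r of -0.2 or less. The list holds the 5 gate genes that admitted these cells, and without them the counts were 8 of 12 and 4 of 12. Mgp, which encodes matrix Gla protein, was the exception with r over 0.2 in both libraries.

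Within Scx-high cells a larger share of genes passed r of 0.2 or -0.2 with Tnmd in the mutant than in the wild-type library. In the mutant library 3.45% of 4496 genes had r of 0.2 or more and 2.91% of -0.2 or less, led by Fmod (0.72), Col1a1 (0.72), Col1a2 (0.70), the procollagen C-proteinase enhancer gene Pcolce (0.67) and the collagen-binding Sparc (0.62). In the wild-type library 0.524% of 3623 genes had r of 0.2 or more and 0% had -0.2 or less. Its leading genes were Dcn (0.38), which encodes the proteoglycan decorin, Kera (0.30), Pcolce (0.29) and Bgn (0.28), which encodes biglycan. Tendon matrix genes with r of 0.2 or more were 17 of 21 in the mutant and 6 of 22 in the wild-type library, and none had -0.2 or less. The 10 highest shared Dcn, Pcolce and Sparc. These shares do not show that genes followed Tnmd more closely in the mutant library. They rest on 235 mutant and 1178 wild-type cells, and r scatters more widely over fewer cells. The range of Tnmd differed too, with no Tnmd UMI in 15.7% of the mutant and 0.255% of the wild-type Scx-high cells. A comparison at equal cell number and range was not made, so the cause of the difference was not tested.

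**Figure D5:**
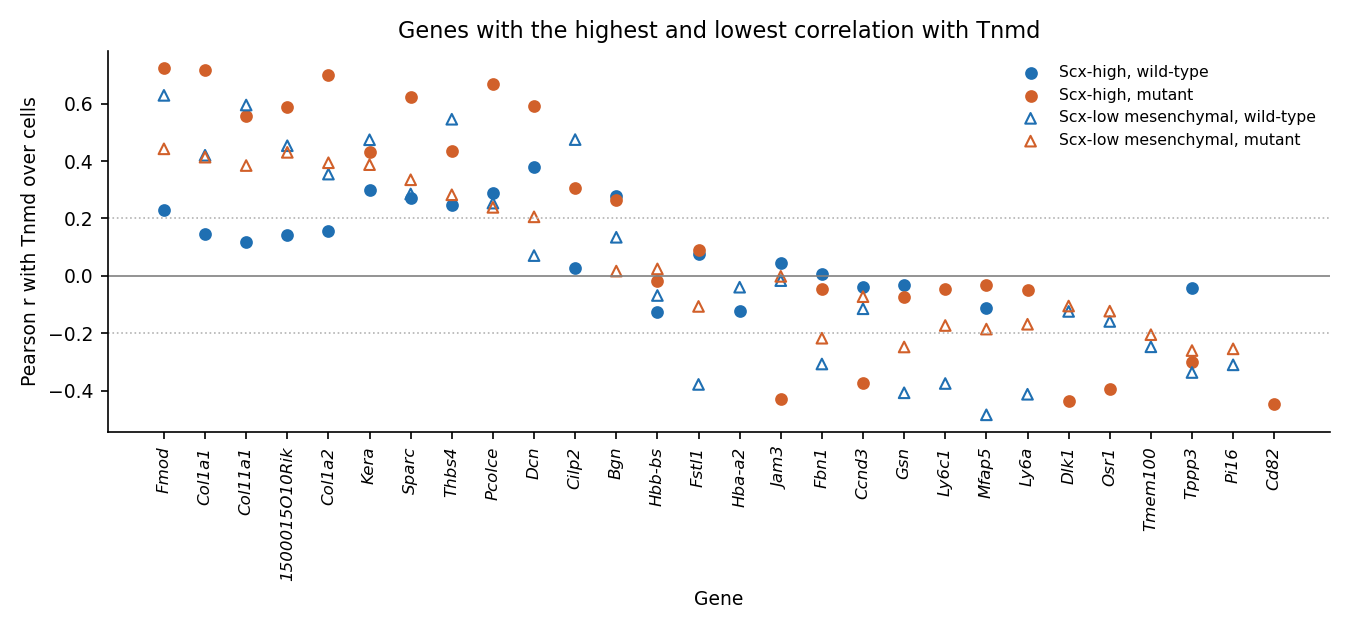
Pearson's r with Tnmd over cells (vertical axis) for the genes with the highest and lowest values in Scx-high (filled circles) and Scx-low mesenchymal cells (open triangles) of the wild-type (blue) and mutant (orange) library, with dotted lines at 0.2 and -0.2 and no point where a gene was in too few cells. Genes on no list that reached neither line in any group are left out, such as Fcgr3, the lowest in wild-type Scx-high cells (-0.15). Fmod has the values 0.23, 0.72, 0.63 and 0.44 in wild-type Scx-high, mutant Scx-high, wild-type Scx-low and mutant Scx-low cells.

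The lowest values in mutant Scx-high cells were those of Cd82, a tetraspanin (-0.45), Dlk1 (-0.43), the junctional adhesion gene Jam3 (-0.43) and Osr1, a transcription factor of connective tissue fibroblasts (-0.39). Without cells carrying markers of another type, 8 of the 10 highest but only 2 of the 10 lowest genes of the mutant Scx-high cells were kept, and the highest r, that of Fmod, was 0.59. In the wild-type Scx-high cells 6 of the 10 highest and 1 of the 10 lowest were kept, and the highest r was 0.24.

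The other lists held few genes with r of 0.2 or more. Among transcription factors linked with tendon, 3 of 8 in mutant Scx-high cells (Scx, Mkx and Meox2) had r of 0.2 or more, none of 6 in wild-type Scx-high cells, and Scx, the gene that formed the groups, alone in both sets of Scx-low cells. Of the TGF-beta ligands, receptors, Smads and targets, only Tgfbi, a secreted matrix protein induced by TGF-beta, reached 0.2, in mutant Scx-high cells (0.21, 1 of 12) and wild-type Scx-low cells (0.27, 1 of 11), against 0 of 9 in wild-type Scx-high and 0 of 8 in mutant Scx-low cells. Immediate early genes, which rise when tissue is dissociated, reached 0.2 in either direction in none of the 4 groups. Beside the 3.45% (mutant Scx-high), 0.524% (wild-type Scx-high), 1.04% (wild-type Scx-low) and 0.732% (mutant Scx-low) of all genes, counts of 0 or 1 in lists of this length are near the background and say nothing particular to them.

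In Scx-high cells Tnmd differed less between the libraries than much of the tendon matrix did. Of 5127 genes 4.25% were at least 2-fold lower and 14% at least 2-fold higher in the mutant library, and the median log2 ratio was 0.37. Of the 22 tendon matrix genes 12 were at least 2-fold lower and 2, Chad and Cilp, higher, and their median log2 ratio was -1.07 against -0.45 for Tnmd. The study had already reported several of them, among them Col1a1, Col1a2, Fmod and Col11a1, as lower in mutant cells of these libraries. The list was chosen with earlier results known, so this count and median are not independent of them. Col1a1 stood at 73183 and 20467 CPM, Fmod at 5299 and 2464 CPM and 1500015O10Rik at 7299 and 1352 CPM in the wild-type and mutant library. Thbs4 did not follow them, at 1142 and 1781 CPM. Of 17 peritenon and fibroblast genes 10 were at least 2-fold higher and only Prg4, which encodes lubricin, lower. Most of those higher, among them Ly6a, Cd34, Dpt, Lum and Mfap5, had been reported by the study as raised in mutant cells of these libraries. This list too was chosen with earlier results known, so its count is no independent result. Of 8 tendon transcription factors none was at least 2-fold lower, which is near the 4.25% of all genes. Scx, on that list, formed the group, so its own level was partly set by the limit. Of 15 TGF-beta genes 1 was lower and 6 were higher, and of 9 immediate early genes none passed in either direction.

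In Scx-low mesenchymal cells 5.6% of 4985 genes were at least 2-fold lower and 2.97% at least 2-fold higher in the mutant library, and the log2 ratio of Tnmd was 0.01. Here 6 of 20 tendon matrix genes were higher, Thbs4, Comp, Kera, Chad, Cilp and Lox, and 3 lower, Col11a2, Cilp2 and Pcolce2, with a median log2 ratio of 0.28 against -0.04 over all genes. Of 18 peritenon and fibroblast genes 6 were lower, among them Pi16 and Clec3b, and Mgp was higher.

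The other genes with a BRICHOS domain did not move with Tnmd as a group. The chondromodulin gene, listed as Lect1, was near the limit of detection, at 7.32 and 7.39 CPM in Scx-high and 10.8 and 17.9 CPM in Scx-low mesenchymal cells of the wild-type and mutant library. Itm2a, Itm2b and Itm2c, which encode small type II membrane proteins, were the 3 of the 9 listed genes found in enough cells to compare. In Scx-high cells Itm2a stood at 416 and 686 CPM, Itm2b at 1331 and 1351 CPM and Itm2c at 670 and 344 CPM. In mutant Scx-high cells Itm2c had an r of 0.32 and Itm2a of -0.32 with Tnmd, and in the other 3 groups none of the 3 reached 0.2 in either direction.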

How the data were processed

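Cells were released enzymatically from P7 tendons and captured with 10x Genomics 3′ chemistry. The deposited values are raw counts, UMIs per gene and cell, which the authors made with Cell Ranger (1.2.0 in the submitters' processing notes) at default settings on mm10, keeping barcodes by total UMI count. All deposited barcodes were used. Cells carrying 3 or more UMIs over the markers of another type were marked, and Scrublet called 10 and 5 cells (0.423% and 0.193%), too few to count as working, so doublets stayed in.

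Members, gates and gene lists were chosen with earlier results of these data known. CPM was summed over the cells of a group. Genes with a UMI in 10% of a group's cells were correlated with Tnmd, and ratios used genes with a mean of 0.1 UMI a cell in either library. Named genes were Tnmd, the gate genes, the 10 highest and 10 lowest r per group and the members of the lists. Tspan6 and Srpx2 were added after their values had been seen. Cells were thinned to 1653 UMIs, the 10th percentile of mesenchymal cells, where shares were compared across depths. Scripts were tested on simulated data and run with Python 3.11.15, NumPy 2.4.6, SciPy 1.17.1 and scanpy 1.11.5. Alternatives changed the limits, filters, totals, free RNA and the measure of correlation. Promoters came from RefSeq tables of GRCm38.p6. Which tendon transcription factors were higher in the mutant library is not reported here.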

Additional observations from a re-analysis of the deposited data

Results flagged for a closer look

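The ratio of Tnmd between the libraries pointed in opposite directions in Scx-low mesenchymal cells divided by Ly6a. In cells with a Ly6a UMI the mutant library stood 2.55 times as high as the wild-type library, and in cells without one it stood at 0.694 of the wild-type level. The difference between these ratios was not tested, because there was 1 library a genotype.

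The same cells divided by Pi16, a marker of adventitial fibroblasts, gave summed ratios on either side of 1 as well, but 1 rested on a single cell. With 3 or more Pi16 UMIs the ratio was 1.75 (1.35 to 2.28), at 131 CPM in 195 wild-type and 229 CPM in 165 mutant cells. Without the cell with most Tnmd UMIs of each library it was 0.679 (0.460 to 0.987), and as a mean over cells 0.959. The highest mutant cell stood at 92.8 Tnmd UMIs per 10,000, against a 90th percentile of 2.79, and a Tnmd UMI was present in 27.7% of the wild-type and 13.3% of the mutant cells. With fewer Pi16 UMIs the ratio was 0.847 (0.811 to 0.884), at 1292 and 1094 CPM, 0.862 without the highest cell of each library and 0.632 as a mean over cells. This difference was not tested either. For the cells divided by Ly6a, the ratios without the highest cell of each library were 2.85 with and 0.702 without a Ly6a UMI, and as means over cells 2.33 and 0.502.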

How the results depend on the processing

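A recalculated value stayed if it lay within the counting interval, or within 0.1 for correlations. A gene list stayed if at least 7 of its 10 highest genes were kept. A ratio could count as reversed only where its main interval excluded 1, so the Scx-low ratio of 1.005 could only stay or move. The settings included leaving out the 10 and 5 cells called by Scrublet. Values that stayed there are counted as well, though so few cells could hardly move them. Of 149 recalculated values over 19 results and 20 settings, 107 stayed, 40 moved and 2 reversed. Those 2 were the ratio of 1.75 in Scx-low cells with Pi16, which became 0.959 as a mean over cells and 0.679 without the cell with most Tnmd UMIs of each library, both chosen after seeing the data. The whole-library ratio of 0.346 became 0.312 without the 20 most abundant genes, 0.287 as a mean over cells and 0.388 after subtracting the level of leukocyte-marked cells. For Scx-high cells the ratio of 0.731 became 0.782 without cells carrying markers of another type, 0.633 without the abundant genes, 0.807 after the leukocyte subtraction, 0.705 with Scx-high from 15 per 10,000 and 0.791 from 60. The Scx-low ratio of 1.005 became 0.874 without cells carrying markers of another type, 0.746 as a mean over cells, 1.43 and 0.918 with Scx-high from 15 and 60, 1.55 with Scx-low under 10 per 10,000, 1.18 with a mesenchymal limit of 10 UMIs and 1.07 without cycling cells. Subtracting the level of leukocyte-marked cells gave 10.8. At 927 CPM in the wild-type library, that level was close to the 1004 CPM of the wild-type group itself. It included the 20 wild-type Scx-high cells with leukocyte markers at 5106 CPM, a kind not found in the mutant library. Wild-type leukocytes outside both groups stood at 131 CPM. The values 0.388, 0.807 and 10.8 therefore do not correct for free RNA alone. Subtracting the level of hemoglobin-rich cells, an alternative chosen after seeing the data, gave 1.06. Cells with Tnmd among Scx-low cells, 16.1% and 21.9%, became 24.8% and 34.1% from 5 Tnmd UMIs per 10,000 and 11.6% and 12.1% from 20. The wild-type share was 12.7% with Scx-high from 15 and 11.7% with Scx-low under 10, and the mutant share 24.2% from 3 UMIs and 24.4% after thinning. The share of Tnmd UMIs in Scx-high cells, 90.7% and 48.3%, became 94.2% and 53.3% with Scx-high from 15, and 87.9% and 43.5% from 60, and the wild-type one 91.2% without cells carrying markers of another type. The wild-type correlation with Scx was 0.68 as Spearman's rho. Of the 10 genes that followed Tnmd best in wild-type Scx-high cells, 6 were kept without cells carrying markers of another type, 5 with Scx-high from 15 and 4 from 60, and at least 7 of 10 were kept in every other group and setting run. The ratios by Ly6a, also tried after seeing the data, were 3.07 and 0.596 after thinning and 2.51 and 0.450 without cells carrying markers of another type. The cause of these moves was not tested. No paired analysis was possible because each genotype had 1 library.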

Other observations

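The genes that follow Tnmd on the X chromosome were looked at after their values had been seen. Tspan6, which encodes a tetraspanin and lies on the minus strand, its nearer end 25491 bases beyond the end of Tnmd, had r with Tnmd of 0.16 and 0.15 in wild-type and mutant Scx-high cells and of 0.30 and 0.14 in wild-type and mutant Scx-low mesenchymal cells. Srpx2, the gene of a secreted sushi-repeat protein, which starts 42849 bases beyond Tnmd, had 0.15, 0.26, 0.14 and 0.16 in the same order. Over all genes compared, the 99th percentile of r was 0.17, 0.34, 0.21 and 0.17 in that order. In Scx-high cells Tspan6 stood at 120 CPM in the wild-type and 179 CPM in the mutant library and Srpx2 at 66.1 and 277 CPM. Both were thus higher in the mutant library where Tnmd was lower, as were many genes. Over the 5127 genes compared there, the median log2 ratio was 0.37, and 14% were at least 2-fold higher in the mutant library.

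Because Tnmd is X-linked and the labels give no sex, the sex-linked genes were counted as well. Xist gave 1 UMI in the wild-type and none in the mutant library, and Y-linked genes were found in 26.4% of wild-type and 29.2% of mutant cells.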
